A study of Mus musculus with 19 samples.

Results

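The CDR3s described here were abundant in a single lymph node library and absent from the tables of all the others. Each was a CDR3 amino acid sequence of the T cell receptor beta chain with 1000 or more reads in one of 16 node libraries and no listing in the other 15. There were 2840 of them, chosen by read count and listing, among 1074236 distinct CDR3s listed in the nodes and 1082330 listed in all 19 libraries. They are called private abundant CDR3s below. Their number and their reads are therefore a description with no test.

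All samples were CD4+ TCRβ+ cells sorted from BALB/c mice on day 7. Mediastinal nodes, which drain the heart, came from mice after sham surgery, in which the chest was opened without tying an artery (4 libraries), or after myocardial infarction (MI) made by tying off the left anterior descending coronary artery (3 libraries). Infarcted hearts gave a further 3 libraries. Mice of both surgical groups received buprenorphine. Axillary nodes came from mice given 200 µl of the adjuvant Titermax Gold alone (4 libraries), 100 µg of porcine cardiac myosin (2 libraries) or 1 mg of mouse heart extract (3 libraries). Both antigens were emulsified in the same adjuvant, at either of 2 volumes that the labels do not assign to samples, so volume and antigen cannot be told apart. Node libraries were made from 500000 sorted cells and heart libraries from 5000. Node libraries held 7534295 to 9235800 reads and heart libraries 2426715 to 5126910. No sham heart was analysed here.

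The CDR3 is the loop where V, D and J segments are joined. Its centre, made of D segment remnants and nucleotides added or trimmed at the joints, usually touches the peptide held by an MHC molecule. Short sequences close to the germline arise often and recur between individuals, and are called public, whereas longer or more edited ones are rarely made more than once and are called private. A clone that divides after meeting antigen raises the number of copies of its own CDR3.

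A library's mean was 36.7 to 202 reads per listed CDR3, so the threshold of 1000 reads was 4.94 to 27.2 times that mean. If reads had followed cells, 1000 reads would have stood for 54.1 to 66.4 of the sorted cells. The count does not show division, and reads also depend on transcripts per cell and on the PCR primers. The lowest count listed was 2, so a CDR3 absent from a table had at most a single read there or was removed upstream. PCR reads without molecular identifiers are not independent molecules, and every interval and limit below covers counting error only.

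The private abundant CDR3 with the most reads in each library is shown first, since these are the sequences the threshold reached most clearly. Letters are amino acids as the tables list them, with the cysteine that opens the loop and the phenylalanine that closes it left off.
sham node 1: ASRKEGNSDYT
sham node 2: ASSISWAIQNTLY
sham node 3: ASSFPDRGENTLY
sham node 4: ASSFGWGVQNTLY
MI node 1: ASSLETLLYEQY
MI node 2: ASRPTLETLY
MI node 3: ASKRTVNNQAPL
adjuvant node 1: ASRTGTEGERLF
adjuvant node 2: ASMRGENTLY
adjuvant node 3: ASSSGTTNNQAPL
adjuvant node 4: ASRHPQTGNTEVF
myosin node 1: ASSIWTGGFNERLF
myosin node 2: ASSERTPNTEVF
heart extract node 1: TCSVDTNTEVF
heart extract node 2: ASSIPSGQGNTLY
heart extract node 3: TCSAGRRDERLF

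The highest of all was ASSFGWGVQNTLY, which used TRBV14 with TRBJ2-4 and had 10533 reads, 0.123% of sham node 4 (95% Wilson interval 0.121 to 0.125%). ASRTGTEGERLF, of TRBV14 with TRBJ1-4, had 10271 reads, 0.133% of adjuvant node 1 (0.131 to 0.136%), and was the most abundant CDR3 of that library. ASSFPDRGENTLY was likewise the most abundant CDR3 of sham node 3, with 5395 reads. In the MI nodes, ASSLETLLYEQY had 3877 reads, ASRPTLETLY 4876 and ASKRTVNNQAPL 5898. The lowest of the 16 was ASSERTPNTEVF with 2174 reads in myosin node 2, at rank 21. It was also the exception among them in its segments: 66.9% of its reads carried its main V-J pair, TRBV13-1 with TRBJ1-1, while each of the other 15 had a single pair.

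TRBV19 or TRBV14 was the V segment of 12 of these 16 sequences. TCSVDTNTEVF and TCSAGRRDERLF, both from heart extract nodes, used TRBV1, whose end supplies the opening TCS. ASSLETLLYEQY used TRBV16.

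At the threshold itself, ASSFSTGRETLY of sham node 2, a TRBV14 sequence with TRBJ2-3, was inside with 1000 reads. ASMDWGVGQNTLY and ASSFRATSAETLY of sham node 4 and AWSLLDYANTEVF of adjuvant node 1 were just outside, each 1 read short of it.

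The number of private abundant CDR3s differed widely within the sham, adjuvant and heart extract groups. The 4 sham nodes held 82, 108, 5 and 409, and the 3 MI nodes 18, 23 and 44. The 4 adjuvant nodes held 335, 100, 476 and 57, the 2 myosin nodes 64 and 48, and the 3 heart extract nodes 328, 129 and 614. The MI nodes lay inside the range of the sham nodes, and the sham, adjuvant and heart extract groups overlapped one another.

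As a share of reads, the private abundant CDR3s took 0.105 to 8.12% of a sham node, 0.436 to 0.751% of an MI node, 1.03 to 9.26% of an adjuvant node, 0.822 to 0.966% of a myosin node and 2.18 to 13.6% of a heart extract node. Over all 2840 the median was 1342 reads and the highest 10533. Among the 100 most abundant CDR3s of a library, 1 to 30 were private.

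How many distinct CDR3s a library listed moved with these numbers. The 5 libraries with fewer than 55000 distinct CDR3s (sham node 4, adjuvant nodes 1 and 3, heart extract nodes 1 and 3) held 2162 members, 76.1% of all. In them 25.4 to 32.5% of the CDR3s with 1000 or more reads were private. The other 11 libraries listed 87506 to 230684 CDR3s, held 678 members, and had a private share of 2.89 to 20.4%. With similar totals, a library that lists fewer CDR3s has more reads for each, so the threshold reached further down in those 5. The part of richness in the group numbers was not tested.

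**Figure D1:**
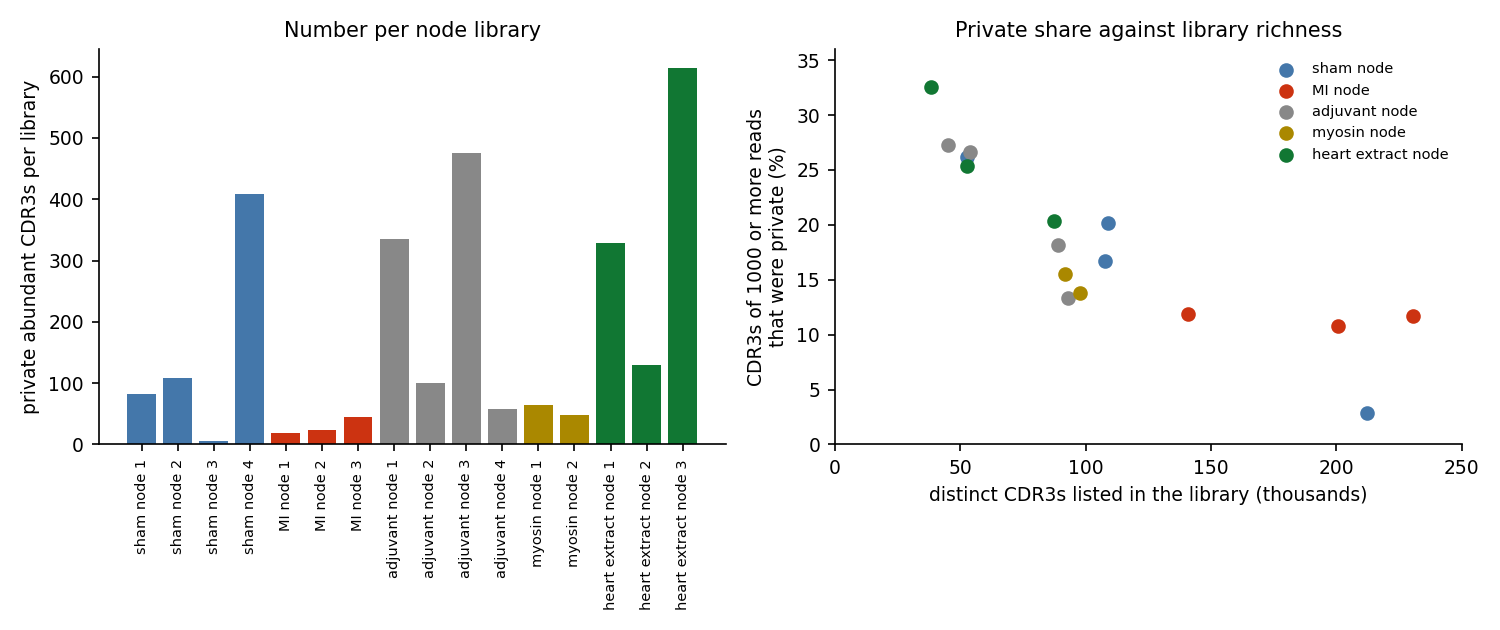
Left, the number of private abundant CDR3s in each of the 16 node libraries, coloured by group, from 5 in sham node 3 to 614 in heart extract node 3. Right, the percentage of CDR3s with 1000 or more reads that were private against the number of distinct CDR3s listed, one point per library; the 5 libraries under 55000 distinct CDR3s lie at 25.4 to 32.5% and the others at 2.89 to 20.4%.

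What the private abundant CDR3s had in common beyond the rule was examined against a pair of other classes in the same libraries. Shared abundant CDR3s also had 1000 or more reads but were listed in another node library (6918 distinct sequences, of which 1071 were in exactly 2 libraries and 220 in all 16). Private minor CDR3s were listed in a single node library with at least 100 but fewer than 1000 reads (102280 sequences). Each library's percentage or mean in one class was subtracted from that in the other, and the mean difference was tested by an exact two-sided sign-flip permutation over the 14 libraries with at least 20 CDR3s in each class, with Benjamini-Hochberg adjustment within each family. Sham node 3 and MI node 1, with 5 and 18 members, were left out of these tests. A shared CDR3 can stand in several libraries, so those libraries are not fully independent. In several of the 14 libraries the members were few, and their percentages scattered accordingly.

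Of the V segments, TRBV14 was more frequent and TRBV5 and TRBV4 were less frequent among private than among shared abundant CDR3s. TRBV19 with 1196 members (42.1%) and TRBV14 with 35.2% of the members supplied most of the 2840. TRBV5 followed with 258, TRBV1 with 140 and TRBV4 with 107. Of 7 V segments tested against the shared class, 3 passed (42.9% called), 1 higher (14.3%) and 2 lower (28.6%).

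TRBV14 was the segment of 20.5% of members in the lowest library, 41.5% in the median and 66.7% in the highest, against 22.4, 34.8 and 47.0% of shared abundant CDR3s. The means were 44.5% ± 13.6 and 34.5% ± 7.20 (SD, n = 14 libraries), a difference of 9.94 points (SE 2.08; permutation adjusted p = 8.54e-04), higher in 13 of 14 libraries. Heart extract node 3 was the exception, with 20.5% against 22.4%. The mean counts each library equally, and the gaps were smaller in the libraries with the most members. Sham node 4 had 31.3 against 27.8% and adjuvant node 1 35.8 against 29.0%. Adjuvant node 3 had 30.5 against 27.0% and heart extract node 1 37.8 against 36.2%. The widest gap was in myosin node 2, with 64.6 against 38.2% and 48 members.

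TRBV5 ran from 0 to 13.9% of members with a median of 7.97%, and from 11 to 32.2% of shared abundant CDR3s with a median of 16.2%. It was lower in 14 of 14 libraries, by a mean of -10.7 points (SE 1.38; permutation adjusted p = 4.27e-04). TRBV4 was lower in all 14 as well, at 2.73% ± 2.63 against 6.27% ± 2.04, a difference of -3.54 points (SE 0.462; permutation adjusted p = 4.27e-04). Both segments were therefore present among private sequences in most libraries but at a smaller share than among the shared ones in the same library.

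TRBV19 did not pass this test. It held 36.1% ± 11.9 of members and 33.5% ± 5.90 of shared abundant CDR3s (difference 2.64 points, SE 1.76; permutation adjusted p = 0.272). Pooled over the 16 node libraries, which weights those with many members most, TRBV19 held 42.1% of members and 35.2% of shared abundant entries. The tested difference depended on the setting: edgeR's quasi-likelihood test on the numbers of CDR3s passed TRBV19 as higher (adjusted p = 0.0142). So did a read minimum of 500 (4.19 points, permutation adjusted p = 0.0252) and weighting each CDR3 by its reads (4.14 points, 0.0196). The difference turned to -4.70 points (permutation adjusted p = 0.0379) when a CDR3 together with its V and J was the unit. TRBV16, TRBV1 and TRBV2, with differences of -0.10, 0.25 and -0.02 points, did not pass either (permutation adjusted p from 0.916 to 0.984).

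**Figure D2:**
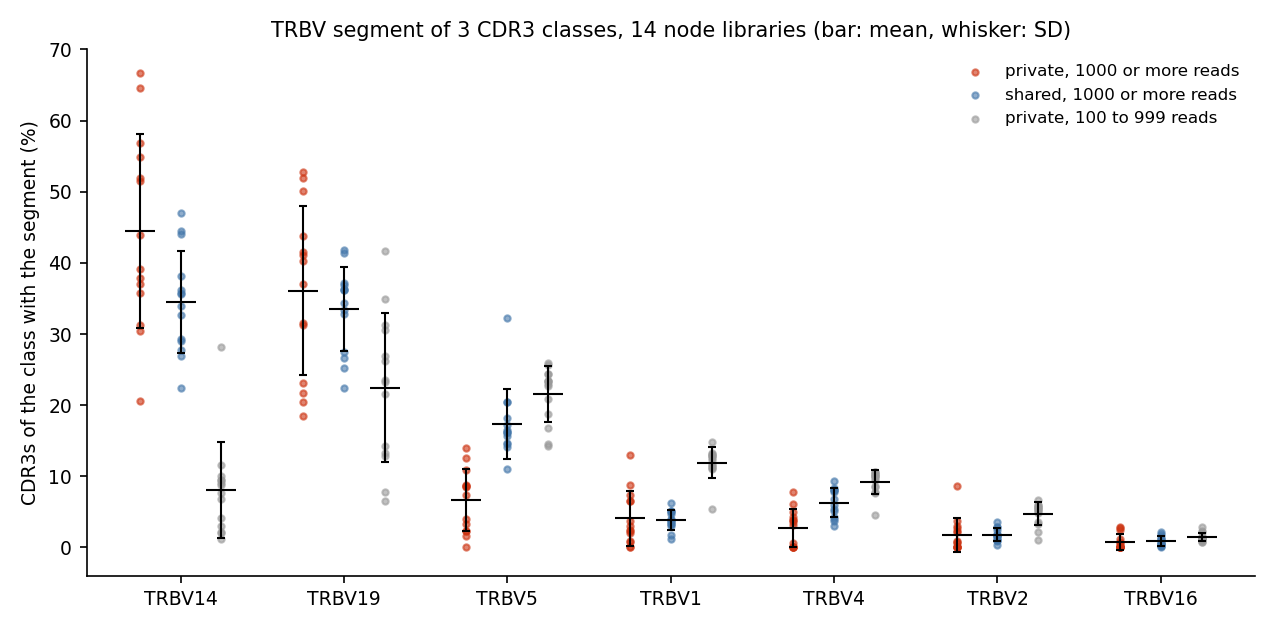
The percentage of CDR3s with each of 7 TRBV segments, for private abundant (red), shared abundant (blue) and private minor (grey) CDR3s; each point is 1 of 14 node libraries, the bar is the mean and the whisker the SD. TRBV14 averages 44.5% in the red class, 34.5% in the blue and 8.12% in the grey, and TRBV5 averages 6.64, 17.4 and 21.5%.

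Set against private minor CDR3s, the V segments of the private abundant ones differed far more. All 12 V segments tested passed (100% called), 2 higher (16.7%) and 10 lower (83.3%). TRBV14 rose from 8.12% ± 6.73 of private minor to 44.5% ± 13.6 of private abundant CDR3s, a difference of 36.3 points (SE 3.47; permutation adjusted p = 3.66e-04), in 14 of 14 libraries. TRBV19 was higher by 13.6 points (SE 5.62; permutation adjusted p = 0.0361) in 10 of 14 libraries. Its call was lost, at adjusted p from 0.0542 to 0.0684, when any one of sham node 4, adjuvant nodes 1, 2 or 3, myosin node 1 or heart extract nodes 1, 2 or 3 was left out.

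The 10 segments that were lower included TRBV5 (6.64 against 21.5%), TRBV4 (2.73 against 9.17%), TRBV1 (4.10 against 11.9%), TRBV31 (0.421 against 4.68%) and TRBV20 (0.0661 against 4.14%), with permutation adjusted p from 3.66e-04 to 0.00146. The others were TRBV13-1, TRBV13-2, TRBV13-3, TRBV2 and TRBV16. TRBV16 was close to the threshold (permutation adjusted p = 0.0432) and did not pass without MI node 2 or 3, any of the 4 adjuvant nodes, myosin node 1 or 2, or heart extract node 2 (0.0505 to 0.0952). Counting those without a library, TRBV16 passed in 8 of 22 alternative settings, with a permutation adjusted p of up to 0.854. It did not pass in edgeR's quasi-likelihood test either (adjusted p = 0.191). TRBV2 did not pass without sham node 2 (0.0547).

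The pair of segments that were higher also had the most reads per listed CDR3. Private abundant and private minor CDR3s were split by those same reads, so this is not a separate observation. Over the 16 node libraries the mean was 230 ± 129 reads (SD) for TRBV14, 165 ± 84.0 for TRBV19, 110 ± 43.4 for TRBV5, 51.0 ± 29.5 for TRBV20 and 28.4 ± 17.8 for TRBV13-1. Of the 22 V segments listed, TRBV14 and TRBV19 had the highest means. Primer efficiency was not measured, and its part in the V segments of either class was not tested. The comparison with shared abundant CDR3s sets both classes at the same read minimum in the same library, counting all V-J pairs of a CDR3. An equal minimum does not make primer efficiency equal, and its part was not tested there either. Pooled over libraries and all segments, 2840 entries were private abundant and 9222 shared abundant. Of abundant CDR3s, 25.3% were private for TRBV14 and 26.9% for TRBV19, against 14.1% for TRBV5, 14.9% for TRBV4 and 4% for TRBV20. The other segments with abundant CDR3s ran from 0% for TRBV29 to 43.5% for TRBV12-2, with 26.5% for TRBV1. A high private share was thus not particular to TRBV14 and TRBV19.

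The TRBV13 family, 3 related segments that are among the most used by mouse CD4+ T cells, supplied 14 of the 2840 members. Shared abundant CDR3s were as short of it, with 44 of 9222 entries (0.477%), counting a CDR3 once in each library. It took 6.74% of private minor CDR3s and 23.3% of all listed entries. By group, TRBV19 held 34.3% of the members of sham nodes, 24.7% of MI nodes, 40.5% of adjuvant nodes, 38.4% of myosin nodes and 49.8% of heart extract nodes. TRBV14 held 41.4, 48.2, 33.8, 57.1 and 29.6% in the same order. These pooled shares weight a group's largest library most, and they were not tested between groups.

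The J segment supplies the end of the loop, so sequences shown above with the same J share their last letters, such as TEVF for TRBJ1-1 and ERLF for TRBJ1-4. TRBJ1-1 with 560 members (19.7%) and TRBJ1-4 with 440 (15.5%) were the most common, and the TRBJ1 cluster as a whole held 1450 (51.1%), against 54.2% of shared abundant and 41.5% of private minor entries. Against shared abundant CDR3s, 4 of 11 J segments passed (36.4% called): TRBJ2-1 and TRBJ1-5 were higher among private ones (18.2%), and TRBJ1-3 and TRBJ2-5 were lower (18.2%).

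TRBJ2-1 held 3.13 to 17.6% of members with a median of 11.2%, and 4.01 to 12.4% of shared abundant CDR3s with a median of 6.76%. The difference was 3.59 points (SE 0.627; permutation adjusted p = 0.00134), higher in 13 of 14 libraries. TRBJ1-3, the GNTLY end of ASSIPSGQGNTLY, held 7.71% ± 2.45 of members and 11.1% ± 1.24 of shared abundant CDR3s, and was lower by a mean of -3.43 points (SE 0.546; permutation adjusted p = 0.00134) in 14 of 14 libraries. These were the J segments whose separation was widest.

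TRBJ1-5, the NNQAPL end of ASKRTVNNQAPL and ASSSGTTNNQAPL, held 3.71% ± 2.50 of members against 1.88% ± 0.881, a difference of 1.83 points (SE 0.655; permutation adjusted p = 0.0235), higher in 11 of 14 libraries. Without MI node 3, where it held 9.09% of members, its adjusted p was 0.0524. TRBJ2-5 was lower by a mean of -1.61 points (SE 0.623; permutation adjusted p = 0.0188) in 10 of 14 libraries. It did not pass without MI node 2 (0.538) or myosin node 2 (0.110), nor in edgeR's quasi-likelihood test (adjusted p = 0.299). Apart from edgeR, TRBJ2-5 passed in 16 of 23 alternative settings, counting those without a library, and kept its direction in all 23. The 23 include the minimum of 2000 reads, which allowed no call. The other 7 J segments did not pass.

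**Figure D3:**
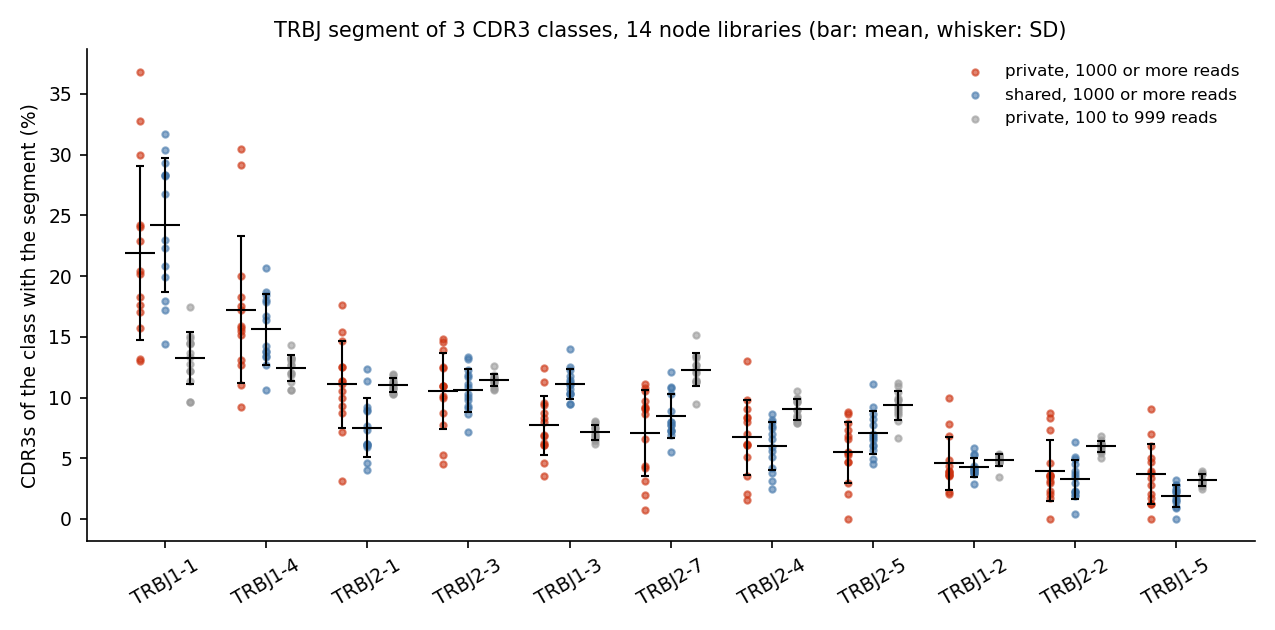
The percentage of CDR3s with each of 11 TRBJ segments in the same 3 classes and 14 node libraries (points), with mean (bar) and SD (whisker). TRBJ2-1 averages 11.1% of private and 7.50% of shared abundant CDR3s, and TRBJ1-3 averages 7.71 and 11.1%.

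Against private minor CDR3s, 6 of 11 J segments passed (54.5% called), 2 higher (18.2%) and 4 lower (36.4%). TRBJ1-1 was higher by 8.62 points (SE 1.87; permutation adjusted p = 0.00224) in 13 of 14 libraries, and TRBJ1-4 by 4.78 points (SE 1.48; 0.00537) in 12. TRBJ2-7 was lower by a mean of -5.19 points and TRBJ2-5 of -3.86 points, each in 14 of 14 libraries (permutation adjusted p = 6.71e-04). TRBJ2-2 and TRBJ2-4 were lower by means of -2.02 and -2.31 points (permutation adjusted p = 0.0263 and 0.0298). TRBJ2-2 did not pass without sham node 4 (0.0962) or adjuvant node 4 (0.0505). TRBJ2-4 did not pass without adjuvant node 1 or 4, myosin node 1 or heart extract node 1 (0.0537 to 0.0725). Of the 4 J segments that passed against shared abundant CDR3s, TRBJ2-5 passed here too and in the same direction, while TRBJ2-1, TRBJ1-3 and TRBJ1-5 did not pass, with differences of 0.05, 0.58 and 0.51 points.

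The most frequent V-J pair was TRBV19 with TRBJ1-1, in 237 members (8.35%), then TRBV19 with TRBJ1-4 in 202 (7.11%), TRBV14 with TRBJ1-1 in 157 (5.53%) and TRBV19 with TRBJ2-1 in 144 (5.07%). Pairs of TRBV19 or TRBV14 filled the first 18 places. TRBV5 with TRBJ1-1, in 54 members, was level with the last of them, TRBV19 with TRBJ1-2.

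Private abundant CDR3s were longer than shared abundant ones, with a more positive net charge and a higher number of glycines in the centre of the loop. The centre was taken as what remains after dropping 4 residues at each end. All 5 features compared with the shared class passed the permutation test. Mean length was 12.5 ± 0.262 residues against 11.7 ± 0.104, a difference of 0.83 residues (SE 0.0689; permutation adjusted p = 1.53e-04). The library means did not overlap, at 12.1 to 13.2 residues for private and 11.5 to 11.9 for shared abundant CDR3s. Pooled over libraries, 13 residues was the commonest length of members (30.6%) and 12 that of shared abundant CDR3s (36.7%). Members of 14 residues made up 16.4%, against 3.75% of the shared class. There were 191 members of 15 or more residues (6.73%) and 70 of 9 or fewer (2.46%).

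Net charge of the centre, counting lysine and arginine as plus and aspartate and glutamate as minus, averaged 0.0309 ± 0.0817 for members and -0.101 ± 0.0407 for shared abundant CDR3s (difference 0.132, SE 0.0185; permutation adjusted p = 1.53e-04). The centre held 1.09 ± 0.135 glycines against 0.975 ± 0.0637 (difference 0.111, SE 0.0407; permutation adjusted p = 9.77e-04). Longer loops have longer centres, and neither feature was divided by length. Both differences are therefore per loop, and they do not show that a member's centre was richer in glycine or charge for each residue. Within TRBV19 alone (9 libraries with enough CDR3s) and within TRBV14 alone (13 libraries), all 5 features passed in the same direction. Members were longer by 0.76 residues among TRBV19 and by 0.89 residues among TRBV14 sequences (permutation adjusted p = 0.00651 and 4.07e-04).

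**Figure D4:**
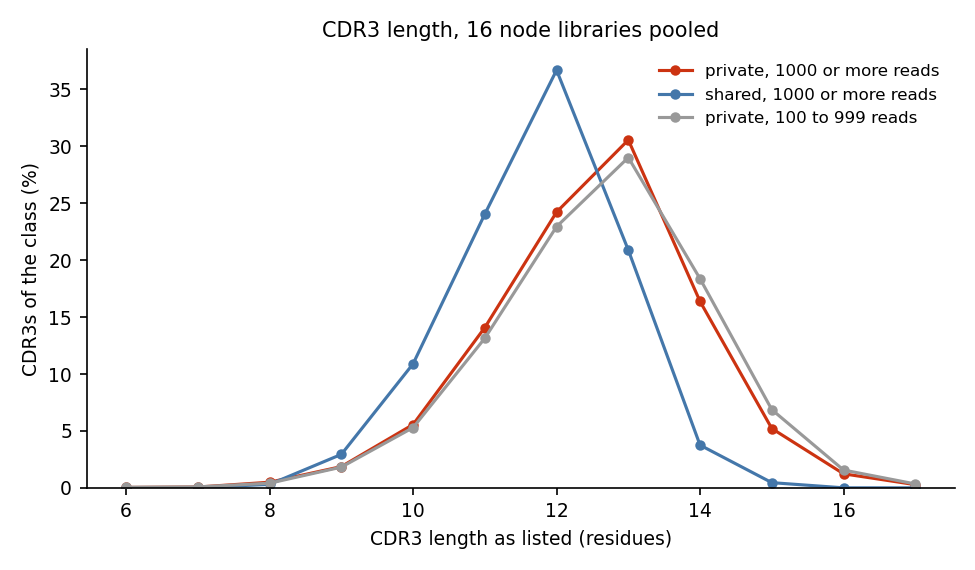
CDR3 length as listed, in residues, against the percentage of CDR3s of each class, pooled over the 16 node libraries: private abundant (red), shared abundant (blue) and private minor (grey). The red and grey lines peak at 13 residues (30.6 and 29.0%) and the blue line at 12 (36.7%).

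Against private minor CDR3s, length, charge and glycines did not pass. Members averaged 12.5 residues and private minor CDR3s 12.6 ± 0.0584 (difference -0.11, SE 0.0752). Charge differed by 0.0346 (SE 0.0272) and glycines by -0.0700 (SE 0.0402). In MI node 2 members were the longest and had the most glycines in the centre. Without that library, length, charge, glycines and neighbours all passed (permutation adjusted p from 0.00122 to 0.0244). The differences were then -0.165 residues, -0.106 glycines, 0.0464 in charge and 0.836 in neighbours. The single feature that passed was the share of a CDR3's reads in its main V-J pair, 99.4% ± 0.587 against 97.3% ± 1.52 (difference 2.05 points, SE 0.488; permutation adjusted p = 0.00488). Within TRBV19 or within TRBV14 that difference was 0.0253 or -0.0745 points and did not pass.

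The main V-J pair also separated private from shared abundant CDR3s. It took 99.4% ± 0.587 of a member's reads and 87.9% ± 6.19 of a shared abundant CDR3's reads, a difference of 11.5 points (SE 1.60; permutation adjusted p = 1.53e-04) found in all 14 libraries. A CDR3 with several V-J pairs in a library stands for several rearrangements that encode the same amino acids, unless a segment was named wrongly. Of the 2840 members, 2751 (96.9%) were listed with a single V-J pair.

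Close relatives of a member in other libraries were few. A neighbour here is a listed CDR3 of the same length that differs at 1 residue. The rule bars members from the other node libraries, whereas every shared CDR3 is itself listed in another library. Misread copies of a shared CDR3 can therefore be counted there, so the class definition favours more neighbours for the shared class. How far this made the difference from shared abundant CDR3s was not tested. Members had 8.25 ± 0.644 neighbours in the other node libraries on average, against 46.5 ± 5.35 for shared abundant CDR3s, a difference of -38.2 (SE 1.5; permutation adjusted p = 1.53e-04), and the library means did not overlap (7.04 to 9.27 against 38.7 to 56.2). Private minor CDR3s had 7.71 ± 0.411, and that difference of 0.55 did not pass, although it did without myosin node 2 (0.60; permutation adjusted p = 0.0250) or MI node 2. Of the members, 438 (15.4%) had no neighbour in any other node library, the median was 6 and the highest 48. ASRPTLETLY, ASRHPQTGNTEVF and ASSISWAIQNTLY were among those with 0, while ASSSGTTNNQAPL and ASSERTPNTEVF had 19 each.

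Neighbours within a member's own library bear on whether its sequence could be a misread copy of a larger clone. Of the 2840 members, 64 had a neighbour with more reads in the same library, 42 of them with the same V and J. In 1 case that neighbour had 10 or more times the reads: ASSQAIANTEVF of sham node 1, with 1044 reads beside one of 15097. It is named after its values were seen. In the other direction, 2594 members (91.3%) had a neighbour of the same V and J with less than 1% of their reads, as did 86.8% of shared abundant CDR3s. How far sequencing errors made such small neighbours was not tested.

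Members were rarely neighbours of one another. There were 78 pairs of members 1 residue apart, 13 within a library, 10 between libraries of a group and 55 between groups, or 24.9, 14.1 and 19.7 for every 1000000 possible pairs. They involved 152 members (5.35%). Pairs within a treatment group were thus no denser than pairs between groups, and no test was made. The 3 pairs below are shown because the less abundant sequence of each had more reads than in any other pair of the same kind and the same V and J. They were chosen after their values were seen.
sham node 4, 4032 reads: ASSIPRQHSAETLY
heart extract node 1, 2871 reads: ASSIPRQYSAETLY
heart extract node 3, 2238 reads: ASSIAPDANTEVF
heart extract node 3, 2620 reads: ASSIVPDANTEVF
adjuvant node 3, 2132 reads: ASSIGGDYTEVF
adjuvant node 2, 2204 reads: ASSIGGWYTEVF

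All 6 used TRBV19, the first pair with TRBJ2-3 and the other 4 sequences with TRBJ1-1.

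The listing of members in hearts was not used by the rule. Of 2840 members, 4 were listed in any of the 3 heart libraries, and 3 of the 4 came from MI nodes. Each of those 3 was listed in the heart with the same number as its node and in no other heart. Their sequences, with the V and J segments that node and heart had in common, were as follows.
MI node 1 and heart 1, TRBV16 with TRBJ2-7: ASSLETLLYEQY
MI node 2 and heart 2, TRBV14 with TRBJ1-4: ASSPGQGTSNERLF
MI node 3 and heart 3, TRBV19 with TRBJ1-5: ASKRTVNNQAPL

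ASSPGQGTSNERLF had 1086 reads in MI node 2, 0.0128% of that library (95% Wilson interval 0.0121 to 0.0136%) and rank 159. In heart 2 it had 145259 reads, 3.30% (3.28 to 3.32%), and was the most abundant CDR3 there. Its share was 258 times as high in the heart as in the node. In hearts 1 and 3 it was not listed.

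ASKRTVNNQAPL had 5898 reads, 0.0644% (0.0628 to 0.0661%), in MI node 3 and 32556 reads, 0.635% (0.628 to 0.642%), in heart 3, where it ranked 23. The ratio of shares was 9.86. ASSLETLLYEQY had 3877 reads, 0.0513% (0.0497 to 0.0530%), in MI node 1 and 3659 reads, 0.151% (0.146 to 0.156%), in heart 1, where it ranked 171. The ratio was 2.94. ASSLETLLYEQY and ASKRTVNNQAPL were also the private abundant CDR3s with the most reads in their nodes. All 3 had a larger share of the heart library than of the node library.

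The fourth, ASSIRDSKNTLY, was found in adjuvant node 3 with 1144 reads as TRBV19 with TRBJ2-4. Heart 1 listed the same amino acids with 4 reads, as TRBV19 with TRBJ1-3. The J segments differ, so the entries are not listed as the same rearrangement.

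By library, 5.56, 4.35 and 2.27% of the members of MI nodes 1, 2 and 3 were listed in a heart, which is 1 of 18, 1 of 23 and 1 of 44. All 4 sham nodes had 0. A count of 0 allows a share of up to 3.66, 2.78, 60 and 0.733% in sham nodes 1 to 4, whose members numbered 82, 108, 5 and 409. Of the 9 axillary libraries, adjuvant node 3 had 1 of 476 (0.210%) and the others 0. Pooled, 3.53% of the members of MI nodes (3 of 85) and 0.0363% of the members of the other nodes (1 of 2755) were listed. The percentages of the MI nodes were above that of every other node library. At these numbers of members, though, the limit that a count of 0 allows was above the 2.27% of MI node 3 in sham nodes 1, 2 and 3, adjuvant nodes 2 and 4, both myosin nodes and heart extract node 2.

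The difference between MI and sham nodes was 4.06 points (MI 4.06% ± 1.66, SD, n = 3; sham 0%, n = 4; exact two-sided permutation p = 0.0286, adjusted over 2 comparisons 0.0286), the smallest p that 35 splits allow. Against all 13 other nodes it was 4.04 points (exact permutation p = 0.00179, adjusted 0.00357), the smallest of 560 splits. Both rest on 1 CDR3 in each MI node, listed only in the heart with the number of that node. Sham and axillary nodes had no heart libraries from their own groups. Infarction therefore cannot be told apart here from a possible match of node and heart in the same mouse. The read minimum was also not alike between nodes. In MI nodes 1000 reads was 15.4 to 27.2 times the mean per listed CDR3. It was 23.0 times in sham node 3, with 5 members, and 4.94 to 12.8 times in the remaining nodes. The part of this in the heart listing was not tested. The difference from sham did not pass when any MI node, sham node or heart was left out (p from 0.0667 to 0.143), where the smaller design or the loss of 1 listing sets the p. The difference from all other nodes reached an adjusted p of 0.05 without any one heart. Drawing every node to the smallest total took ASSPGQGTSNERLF below 1000 reads, and the differences were then 3.24 and 3.22 points with adjusted p of 0.143 and 0.05. With a read minimum of 500, the difference from sham was 0.958 points (exact permutation adjusted p = 0.0857) and that from all other nodes 1.15 points (0.00714). With a minimum of 2000, both were 12.2 points (0.143 and 0.05).

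Other classes give the background for these percentages. Among shared abundant CDR3s, 12.6% of those of MI nodes and 5.13% of those of other nodes were listed in a heart. Sham node 3, which listed 212131 distinct CDR3s, had 13.7%, inside the 12.1 to 14.1% of the MI nodes. The remaining node libraries had 3.30 to 8.63%, and the part of library richness was not tested. Among private minor CDR3s the pooled shares of MI and other nodes were 0.364 and 0.151%. Among private CDR3s of any read count they were 0.183 and 0.145%, and among all listed CDR3s 0.823 and 0.947%. The 3.53% of MI node members therefore lay between the private minor and the shared abundant class of the same nodes.

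Listing by heart number was also read in the private minor class, which has more sequences. Hearts 1, 2 and 3 listed 9, 2 and 3 of the 4096 private minor CDR3s of MI node 1. For the 4295 of MI node 2 the numbers were 0, 11 and 4, and for the 7809 of MI node 3 they were 2, 5 and 23. In every case the heart of the same number listed the most. Together 43 were listed in the same-numbered and 16 in the other hearts, at mean percentages of 0.257 and 0.0508% per heart. Only 6 pairings of 3 nodes with 3 hearts exist, so the one-sided exact permutation p of 0.167 is the smallest possible. The labels do not say whether a node and a heart of one number came from one mouse.

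**Figure D5:**
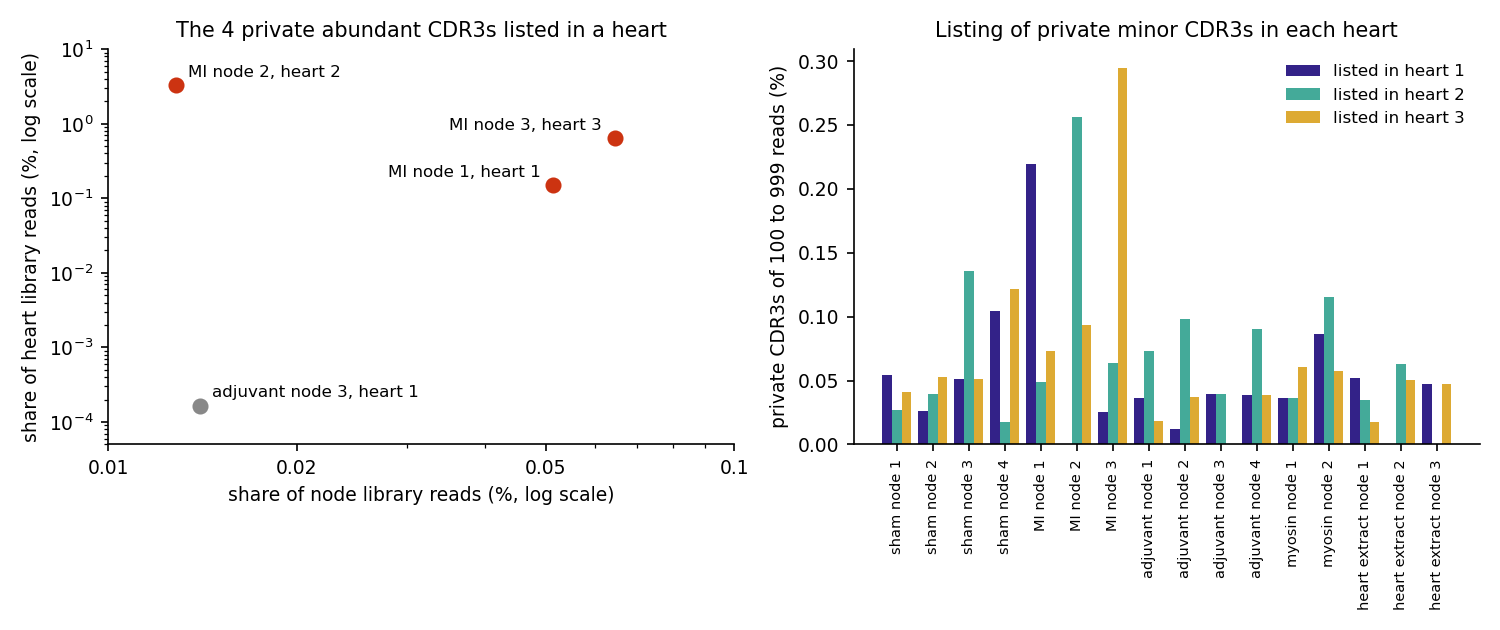
Left, the 4 private abundant CDR3s listed in a heart, by their share of node reads and of heart reads (percent, both axes logarithmic); the 3 from MI nodes (red) lie at 0.151 to 3.30% of their heart and the one from adjuvant node 3 (grey) at 1.65e-04%. Right, the percentage of private minor CDR3s in each node library that each heart listed; in MI nodes 1, 2 and 3 the tallest bar is that of heart 1, 2 and 3.

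TRBV26, TRBV12-1, TRBV12-2, TRBV16 and TRBV15 belong to V segments whose T cells are largely deleted in BALB/c mice by superantigens of endogenous mammary tumor virus. They supplied 57 of 2840 members (2.01%), close to their 1.59% of shared abundant, 2.81% of private minor and 1.75% of all listed entries. By group these were 25 of 604 in sham nodes (4.14%), 8 of 85 in MI nodes (9.41%), 8 of 968 in adjuvant nodes (0.826%), 0 of 112 in myosin nodes and 16 of 1071 in heart extract nodes (1.49%). In the MI nodes they were 2.46% of shared abundant and 3.64% of private minor entries. No test was made between groups. TRBV16 supplied 31, among them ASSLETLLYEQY, and TRBV15 supplied 14.

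TRBV12-2 supplied 10 members, 6 of them in MI nodes and 5 of those in MI node 3 alone. The 5 are shown because a single library held so many of a rare segment, and they were chosen after their values were seen.
TRBJ2-3, 3061 reads: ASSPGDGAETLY
TRBJ1-4, 1968 reads: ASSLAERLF
TRBJ1-1, 1221 reads: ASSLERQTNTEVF
TRBJ2-4, 1082 reads: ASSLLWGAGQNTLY
TRBJ1-1, 1004 reads: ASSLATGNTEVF

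Each of the 5 also carried a minority of reads as TRBV3 with the same J: 203 of the reads of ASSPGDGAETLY, 108 of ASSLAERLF, 89 of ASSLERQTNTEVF, 64 of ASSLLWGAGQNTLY and 59 of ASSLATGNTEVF. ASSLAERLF also had 208 reads as TRBV14 and 4 as TRBV29. Such splits leave the V name of these sequences uncertain. TRBV12-2 was 11.4% of the members of MI node 3 and had a median of 0 over the 14 libraries tested, so the MI share of this list rests mainly on that library. None of the 5 was listed in a heart.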

How the data were processed

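The deposited tables list whole-number read counts per combination of CDR3, TRBV and TRBJ, per the file columns 1 table for each library. TRB transcripts were amplified from total RNA by multiplex PCR, per the labels' protocols. The authors' deposited counts were used without normalization. Aligner, error correction and segment reference: not given in the sources used here. No molecular identifiers are mentioned. Whether a library is 1 mouse or a pool is not in the labels. The p-values therefore measure only the spread between libraries, which may be technical.

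Reads were summed per CDR3. A CDR3's V and J were those with most of its reads in the library. A segment was tested where the other class predicted at least 25 members. This replaced a planned minimum of 10 CDR3s, after a check on simulated data called unchanged rare segments too often. The rate of such calls under the planned minimum is not reported here. Tests were exact sign-flip permutations over libraries and exact permutations of group labels, with Benjamini-Hochberg adjustment at 0.05, in Python 3.11.15 with numpy 2.4.6, scipy 1.17.1 and pandas 2.3.3. edgeR 4.0.16 in R 4.3.3, with library as a block, was an alternative for segments. Other alternatives were read minimums of 500 and 2000, up to 10 reads tolerated elsewhere, entries under 10 reads dropped, nodes drawn to the smallest total, CDR3 with V and J as the unit, weighting by reads, at least 10 heart reads, and leaving out each library.

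Members and segment lists were chosen with earlier results of these data known. Named CDR3s were the top member of each library, members listed in a heart and those nearest the threshold. Named segments were those past the threshold or with the smallest p. No cell type markers could be read, because only TRB transcripts were amplified.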

Additional observations from a re-analysis of the deposited data

How the results depend on the processing

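Of 145 results recomputed under other settings, 110 were classed as unchanged, and of 278 recomputed without a library, 260 were. For a tested difference, unchanged means the same direction and side of the threshold. A count of members or calls only had to stay near the main count. So 4111 members against 2840, with CDR3, V and J as the unit, was classed as unchanged. So was a count of 9 V calls against 12 for private minor CDR3s without adjuvant node 1. Single segments could lose their call within an unchanged count. The number of members was 11503 at 500 reads, 521 at 2000 and 2245 to 2987 without a library. With 2000 reads, 5 libraries had 20 CDR3s in each class and p could not go below 0.0625, so no call was possible: 0 V and 0 J segments passed against either class, and the differences from shared CDR3s were 0.85 residues, 0.115 in charge, 0.0465 glycines, 5.21 points of main pair share and -33.7 neighbours, with 3.90 points of main pair share against private minor CDR3s. Heart listing then differed by 12.2 points from sham and from all other nodes, without passing, and at 500 reads by 0.958 points from sham (adjusted p = 0.0857). Drawn to the smallest total, it differed by 3.24 and 3.22 points. Without a library it ranged from 2.21 to 4.78 points in both comparisons. At 500 reads 5 V segments passed against shared CDR3s, and 5 with CDR3, V and J as the unit, where the main pair share has no value. Against private minor CDR3s, charge (0.0554), glycines (-0.0787) and neighbours (0.681) passed at 500 reads, length (-0.209), charge (0.0618) and glycines (-0.111) after drawing, and neighbours (2.32) with CDR3, V and J as the unit. Without a library these differences ran from -0.165 to -0.0719 residues, 0.0271 to 0.0473 in charge, -0.106 to -0.0570 glycines and 0.480 to 0.836 neighbours. The planned segment filter passed 19 V segments against private minor CDR3s, which were all those tested except TRBV12-2 and TRBV15. Among the 19, TRBV12-1, TRBV17, TRBV23, TRBV29 and TRBV30 had 0 members. Against shared abundant CDR3s the planned filter passed TRBV20 as lower (-0.280 points, permutation adjusted p = 0.0342) besides TRBV14, TRBV5 and TRBV4. Restricted to TRBV19, length and charge turned to 0.0795 and -0.0106, and main pair share was 0.0253 points. Restricted to TRBV14, length, charge, main pair share and neighbours turned to 0.138, -0.00747, -0.0745 and -0.277. None of these 6 turned differences passed. The cause of these changes was not tested, except where fewer libraries or CDR3s limit p. With the replicate number as a block, heart listing differed by the same 4.06 points from sham, with an exact permutation p of 0.25, the smallest that 3 pairs allow. The numbers do not pair nodes by read shares: same-numbered sham and MI deviations correlated at -0.00910, -0.00815 and -0.0103 over 7622 CDR3s. Among 14 sets of library values tested for a sample far from the rest, 0 stood out. With 5 to 614 members in a library, percentages of small libraries are coarse.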
